A study of Ovis aries with 3 samples.

Results

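Endothelial and haematoendothelial cells made up 575 of the 31576 cells kept from scRNA-seq counts of 3 libraries of whole sheep embryos. A cell was a member when it held at least 1 UMI (unique molecular identifier, 1 counted transcript molecule) of at least 2 of the 4 rule genes *PECAM1*, *KDR*, *PLVAP* and *CDH5*. Cells with at least 5 UMIs of *AHSP* and at least 2 of *ALAS2*, which mark erythroid cells, were left out. Kept cells had 200 to 6000 detected genes, 1000 to 30000 UMIs and at most 10% of their UMIs on mitochondrial genes. The E19 HSTS library came from an embryo of the Hulunbuir short-tailed breed at embryonic day 19, which carries a missense mutation in the DNA-binding domain of the transcription factor gene *T*. The E19 HS and E16 HS libraries came from Hu sheep with wild-type *T* at embryonic days 19 and 16, so breed and *T* allele cannot be told apart. All embryos were dissociated with collagenase and treated with a red blood cell lysis buffer. The label of the E16 HS library names 1 embryo and the methods give 3 for this group, and whether cells of several embryos were pooled is not given in the sources used here. Where 3 values stand side by side, the first is E19 HSTS, the second E19 HS and the last E16 HS. Each condition had 1 library and no replicate, no test was made, and every interval printed is an exact 95% interval that covers counting error only.

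Endothelial cells line the blood vessels and the inside of the heart. They arise in the early mesoderm from cells that carry *KDR*, a receptor for the growth factor VEGF, and part of them share their origin with the first blood cells. Arterial, venous, endocardial and scavenging endothelium later use different sets of genes, and blood flow itself switches on genes such as *KLF2*.

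The 3 libraries held 9618, 10629 and 11329 kept cells, with between 88733467 and 113213654 UMIs each. The members had a median of 8970, 7115 and 8638 UMIs per cell, against 7149, 6353 and 8028 in the other kept cells that were not erythroid. Each pair of libraries shared 31 to 37 barcodes of kept cells, and no barcode of a member was shared. Some genes differed between the 2 day 19 libraries in all kinds of cells, and such a gap is no property of the members. *GAPDH*, a glycolytic enzyme, had 9 UMIs in E19 HSTS members against 4737 in those of E19 HS, and the ratio E19 HSTS over E19 HS was 0.00257 in the members and 0.00359 in the other cells. *RPS6*, a ribosomal protein gene, was 3.74-fold higher in E19 HSTS members and 3.38-fold higher in the other cells.

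Members were most frequent in E19 HS and least frequent in E16 HS. They made up 183 of 9618 cells in E19 HSTS, or 1.90% (1.64 to 2.20%). In E19 HS they were 291 of 10629 cells, or 2.74% (2.44 to 3.07%). In E16 HS they were 101 of 11329 cells, or 0.892% (0.727 to 1.08%). These 3 intervals did not overlap, although the spread between embryos is not known. All kept cells include the erythroid cells, which the rule leaves out. Among cells that were not erythroid, members were 2.55% (2.20 to 2.94%), 3.12% (2.78 to 3.49%) and 1.07% (0.869 to 1.29%). By this measure the intervals of E19 HSTS and E19 HS overlapped. Erythroid cells, which should lack these genes, gave a background share. Whether it came from free RNA in the droplets or from doublets was not tested. At least 2 rule genes were found in 0.327%, 0.460% and 0.215% of erythroid cells, at median depths of 18071.5, 18210 and 14531 UMIs. Neural cells of the day 19 libraries, with *SOX2* and *PAX6*, had shares of 0.145% and 0.530%, and in E16 HS 0 of 387 such cells had them. After each cell was thinned to 3000 UMIs, members were 1.69%, 2.50% and 0.469% of the cells, and the last value had an interval of 0.345 to 0.624%. In thinned erythroid cells the shares were 0.0817%, 0.153% and 0.163%, so the E16 HS share stayed above its background by the smallest margin. The thinning left out 1106, 1345 and 1317 shallower cells, of which 10, 12 and 5 were members.

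**Figure D1:**
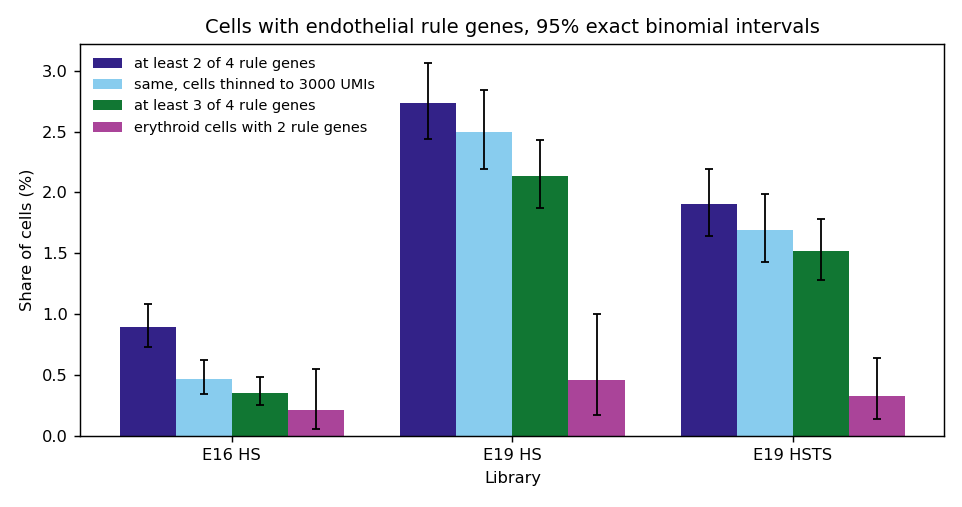
Share of cells in percent (vertical axis) for each library (horizontal axis), with exact 95% binomial intervals as error bars; bars show cells with at least 2 rule genes, the same after thinning to 3000 UMIs, cells with at least 3 rule genes, and erythroid cells with at least 2. The E19 HS bars are the tallest in each kind, from 2.14% to 2.74% in members, and the thinned E16 HS bar reaches 0.469%.

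The label was checked with *CD93*, a surface lectin of endothelium that the rule did not use. It was detected in 74.9%, 72.5% and 42.6% of the members. The summed level was 254, 239 and 99.1 CPM (counts per 1000000 UMIs of the same cells), against 0.30, 0.387 and 0.542 CPM in the other cells. At the threshold of the rule, *CD93* was found in 1.17%, 1.05% and 1.54% of the cells with exactly 1 rule gene. It was found in 27.0%, 46.9% and 19.7% of the cells with exactly 2 rule genes, which are just inside the rule. With 3 rule genes the shares were 82.8%, 72.8% and 72.0%, and with all 4 they were 90.2%, 90.1% and 86.7%. *CD93* thus rose in steps with the number of rule genes in each library, and the members just inside the rule were the least endothelial by this gene.

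The members of E16 HS were selected by other gene pairs than those of day 19. In E16 HS, 46 of 101 members (45.5%) held *KDR* and *PLVAP* without *PECAM1* or *CDH5*, against 18 of 183 (9.84%) and 19 of 291 (6.53%) on day 19 in E19 HSTS and E19 HS. At least 3 rule genes were found in 146 of 183 (79.8%), 227 of 291 (78.0%) and 40 of 101 members (39.6%). *PLVAP*, a protein of the fenestrae of vessels, was found in 94.0%, 91.4% and 97.0% of the members. *PECAM1*, an adhesion molecule of endothelial junctions, was found in 90.2%, 92.1% and 54.5%. These values chose the members and are a description only. Values for E16 HS over all members therefore include these cells, and for the main genes they are also given for members with at least 3 rule genes.

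Genes known from endothelium in general, and not used by the rule, were far above the other cells in each library. The list held 32 such genes, 29 of which were in the count tables. Their summed level in members was 2682, 2969 and 1267 CPM, against 58.5, 68.6 and 101 CPM in the other cells. Of 20 list genes with enough UMIs to compare in every library, 19 were at least 2-fold higher in members in each library, where 3.9% of all 11906 genes were. At least 2 genes of the list were found in 94.0%, 95.2% and 75.2% of members and in 5.44%, 5.80% and 12.3% of other cells. Since the members were chosen on genes that go together with these, the count describes the cells and tests nothing. *NOS3*, which makes nitric oxide in endothelium, had 86.3, 105 and 35.1 CPM in members and at most 0.281 CPM in other cells. *RASIP1*, needed for vessel lumens, had 148, 142 and 58.8 CPM, and *GNG11*, a G protein subunit, had 717, 989 and 379 CPM. *TEK*, the receptor of angiopoietins, had 79.9, 62.9 and 25.8 CPM. *TIE1*, its partner, was at 22.2, 23.2 and 20.6 CPM, with overlapping intervals in all 3 libraries. *SOX18* and *SOX7*, transcription factors of early vessels, had at most 5 UMIs in the members of any library and could not be compared.

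**Figure D2:**
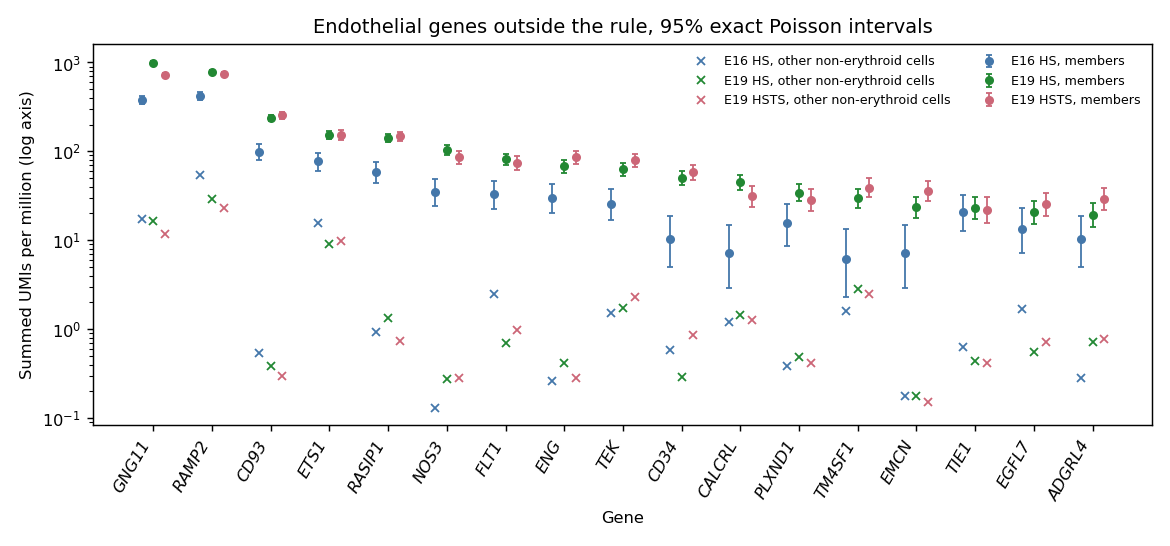
Summed CPM on a log axis (vertical) for endothelial genes outside the rule (horizontal), in members (points, with exact 95% Poisson intervals) and in other non-erythroid cells (crosses) of each library. For *CD93*, members lie at 99.1 to 254 CPM and other cells at 0.30 to 0.542 CPM.

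Beyond the list, the genes with the highest ratio of members to other cells in the library where that ratio was lowest were given by a fixed rule. The first 3 were the rule genes *PECAM1*, *KDR* and *PLVAP*, and *GNG11* followed with a ratio of at least 21.7 in each library. *TM4SF18*, a membrane protein, had 241, 210 and 111 CPM in members and a ratio of at least 12.3. *HAPLN1*, which links hyaluronan to proteoglycans and is known from the heart lining, had 157, 133 and 129 CPM and a ratio of at least 11.4. *RAMP2*, a partner of the adrenomedullin receptor, had 735, 787 and 417 CPM and a ratio of at least 7.74. *F2R*, the thrombin receptor, had 265, 194 and 219 CPM. *VIM*, the intermediate filament of mesodermal cells, had 7152, 8233 and 4987 CPM and a ratio of at least 3.21. *IGFBP4* had 507, 557 and 428 CPM, and *NRP1*, a co-receptor of VEGF, had 166, 129 and 111 CPM. The others were *SMAGP*, *INKA1*, *RILPL2*, *RAP1B*, *UCP2*, *ETV2*, *DAB2*, *ARHGAP29* and *ARPC1B*, with lowest ratios between 2.20 and 8.38.

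The haematoendothelial part of the label rested on few genes. *ETV2*, the transcription factor that starts the endothelial and blood programme, had 99.7, 85.7 and 170 CPM in members, against 28.7, 29.0 and 19.8 CPM in other cells. It was detected in 31.7%, 35.4% and 31.7% of the members, and 1 cell held 31.0%, 23.6% and 22.4% of its UMIs. *HHEX*, an early endothelial and blood regulator, had 61, 75 and 15 UMIs. *LMO2* had 13, 24 and 5 UMIs, *TAL1* had 5, 6 and 2, *LYL1* had 4, 5 and 3, and *GATA2* had 3, 6 and 0. These are the partners of the complex that drives early blood formation, and they were too sparse for a comparison between libraries.

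Several genes that mark the step from endothelium to blood stem cells had almost no UMIs in the members. *RUNX1*, the regulator of that step, had 0 UMIs in the members of each library and 5, 1 and 4 UMIs in all kept cells. With so few UMIs in all cells, its absence says little about the members. *MYB* had 1, 3 and 0 UMIs in members, and *SPI1* had 0, 1 and 0. *KIT*, a receptor of blood progenitors and other cells, was found in 8.74%, 8.25% and 10.9% of the members. *PTPRC*, the pan-leukocyte marker CD45, had 3, 5 and 7 UMIs in members, all of them in a group of 16 cells described later. The list of haemogenic and early blood genes summed to 39.1, 52.5 and 64.0 CPM in members and 17.0, 19.3 and 12.5 CPM in other cells, and *KIT* and *CORO1A* held most of it in the members. Of 4 genes of this list compared in every library, 3 were at least 2-fold higher in members in each, where 3.9% of all genes were. Of 3 angioblast genes compared, 3 were. These counts describe the chosen cells and are too sparse to decide on the blood part of the label. The name haematoendothelial is kept here only as the name of the cells chosen by the rule.

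The members fell into 6 clusters, which were made without correcting for the library. Their leading genes define them, so the values that follow describe the cells and are no comparison of libraries. A cluster of 62 cells was led by *NOSTRIN* and *ESM1* and included *CXCR4* and *GJA5* among its 10 leading genes, and it was called arterial-like. *ESM1*, a secreted proteoglycan of sprouting tip cells, was found in 74.2% of its cells. *GJA5*, the connexin of arteries, was found in 30.6%, and *NR2F2*, which specifies veins, in 11.3%. *ESM1* stands on the tip cell list and *CXCR4* on both the tip cell and the arterial list, so the name means a resemblance. The tip cell list summed to 1414 CPM here, against 14.9 to 323 CPM in the other clusters. For the arterial list it was 784 CPM, against 83.3 to 376 CPM. *PLVAP* was found in 56.5% of the cells of this cluster, the lowest share of the 6. It held 19, 42 and 1 members of the 3 libraries.

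A cluster of 88 cells was led by *POSTN*, *CDH11*, *FN1* and *HAND2* and was called endocardial-like. *POSTN*, a matrix protein of the heart valves, was found in 89.8% of these cells. *HAND2*, a transcription factor of the heart, was found in 52.3%, and *NPR3*, a marker of the heart lining, in 34.1%. *NFATC1*, a defining factor of the endocardium, had at most 3 UMIs in the members of any library, and *POSTN* also belongs to the cushion mesenchyme list, so the name means a resemblance. *ESM1* had 0 UMIs in the cluster, and *CD93* was found in 45.5% of its cells. High doublet scores, here the top 8% of each library, were given to 21 of the 88 cells. It held 23, 60 and 5 members.

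The most numerous cluster had 181 cells and was led by *STAB2*, a scavenger receptor of sinusoid vessels, and *LCK*. *STAB2* was found in 31.5% of its cells, *STAB1* in 67.4%, *LCK* in 60.8% and *NR2F2* in 64.1%. Only *STAB2* among its 10 leading genes belonged to a marker list apart from the rule gene *PLVAP*, and the cluster was left without a cell type name. At least 3 rule genes were held by 90.1% of its cells. It held 65, 98 and 18 members. A further 68 cells (26, 40 and 2 members) were led by histone genes, with *TOP2A*, an enzyme of dividing cells, in all of them, and had 88.2% of cells with at least 3 rule genes.

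The other 2 clusters held members that were weak in the general endothelial list. It summed to 1277 CPM in a cluster of 160 cells and 1576 CPM in a cluster of 16 cells. In the other 4 clusters it summed to at least 2022.5 CPM. The cluster of 160 cells was led by *KRT19*, *KRT18*, *COL1A1* and *CRABP1*, which are genes of epithelium and mesenchyme. The rule genes *KDR* and *PLVAP* were found in 92.5% and 98.1% of its cells. Its angioblast list summed to 252 CPM, the highest of the 6 clusters, against 30.3 to 124 CPM in the others. *CD93* was found in 43.1% of its cells, at least 3 rule genes in 47.5%, and 60 of the 160 had high doublet scores. It held 48, 46 and 66 members, the last out of 101. The last cluster had 16 cells (2, 5 and 9) with *C1QA* in 25%, *TYROBP* in 50% and *GP1BB* also in 50% of them. *PTPRC* was found in 43.8% and *GATA1* in 37.5%. These are genes of macrophages, platelets and red cell precursors, and none of its cells held 3 rule genes. These 2 clusters left 26 of the 101 members of E16 HS for the other 4.

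**Figure D3:**
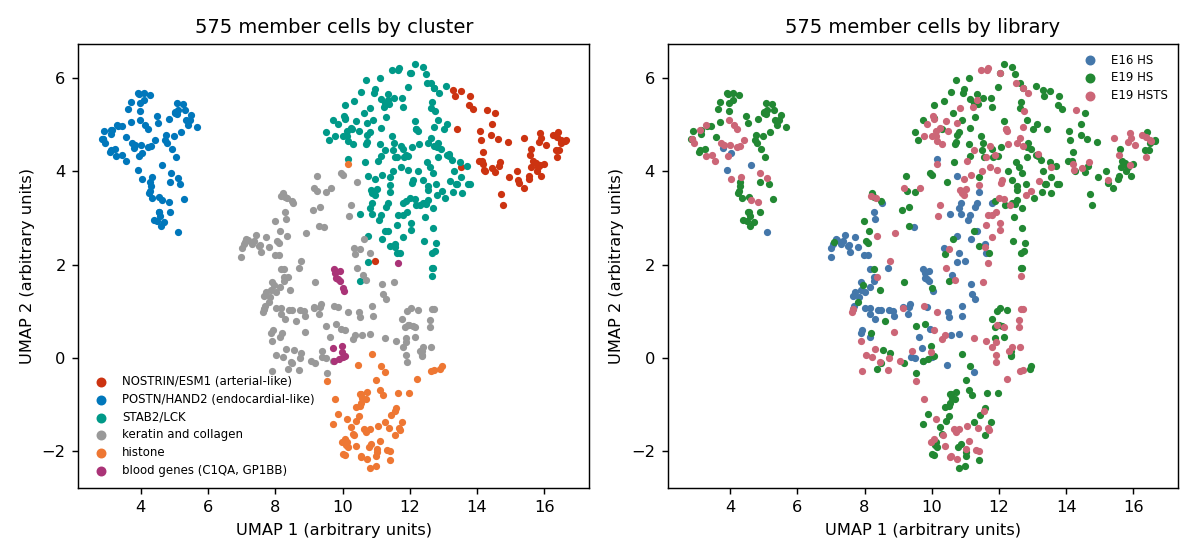
Map of the 575 members in UMAP coordinates (arbitrary units on both axes), with points as cells, coloured by cluster on the left and by library on the right. The endocardial-like cells form an island of their own, and the E16 HS cells lie mostly among the 160 cells of the keratin and collagen cluster.

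**Figure D4:**
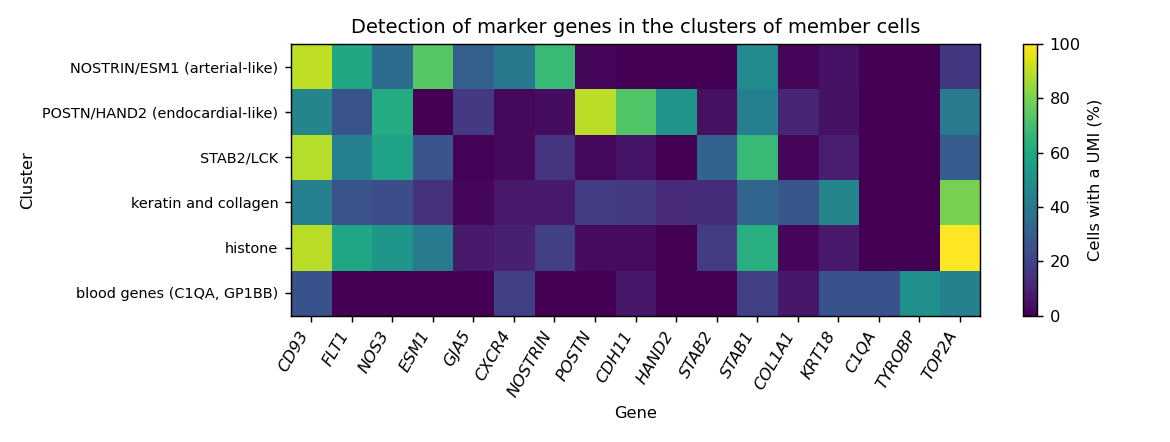
Share of cells with at least 1 UMI (colour, in percent) of marker genes (horizontal axis) in the 6 clusters of members (vertical axis). *POSTN* is found in 89.8% of the endocardial-like cells, *ESM1* in 74.2% of the arterial-like cells, and *TYROBP* in 50% of the blood-gene cells only.

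At day 19, the general endothelial programme of the members had nearly the same level in both breeds. A gene was counted as higher or lower in E19 HSTS when its CPM ratio over E19 HS was at least 2 or at most 0.5, its interval left out 1, and it had at least 20 UMIs over both. Of 7021 genes compared, 183 were higher (2.61%) and 137 were lower (1.95%), and the median log2 ratio was 0.11. With TMM scaling (trimmed mean of M-values), which moved that median to -0.02, the counts were 106 higher and 186 lower. Among 25 endothelial list genes compared, 0 were higher and 2 were lower, with a median log2 ratio of 0.08. The 2 lower genes were *VWF*, the clotting factor carrier of endothelium, with 6 against 46 UMIs (ratio 0.177, 0.0617 to 0.415), and *ESAM*, a junction protein, with 8 against 27 UMIs (0.401, 0.158 to 0.908). *CD93* had a ratio of 1.06 (0.934 to 1.21), *FLT1* of 0.910 (0.721 to 1.15) and *NOS3* of 0.825 (0.668 to 1.02). For *ESAM* the interval included 1 among members with at least 3 rule genes (0.437, 0.169 to 1.01), and for *VWF* it did not (0.153, 0.0473 to 0.388).

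Of the genes of the heart lining and its cushions, *POSTN* and *HAND2* were lower and *GATA4* was higher in E19 HSTS members, while the endocardial list as a whole had a sum ratio of 0.965 (0.852 to 1.09). *POSTN* had 198 UMIs in the E19 HSTS members against 774 in E19 HS, or 115 and 333 CPM. Its ratio was 0.347 (0.295 to 0.406) in members and 1.10 in the other cells. *HAND2* had 13 and 75 UMIs, a ratio of 0.235 (0.120 to 0.426), against 1.33 in the other cells. Both genes were concentrated in the endocardial-like cluster, which held 23 members of E19 HSTS and 60 of E19 HS, and the number of these cells and their RNA level both enter the sum. Within that cluster *POSTN* had 821 and 1423 CPM and *HAND2* 53.0 and 134 CPM, which is a description only, since both genes define the cluster. *GATA4*, another heart transcription factor, went the other way with 17 and 9 UMIs (2.56, 1.08 to 6.51). Without the members that had high doublet scores its interval included 1 (2.00, 0.792 to 5.31). Of the other genes of the endocardial list, *NPR3* had a ratio of 1.06 (0.677 to 1.64) and *HAPLN1* of 1.18 (0.999 to 1.39). Of 7 genes of this list compared, 1 was higher and 1 was lower, and of 4 cushion mesenchyme genes *POSTN* alone was lower.

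Of the tip cell and the flow and barrier genes, *CXCR4* alone was counted, as lower in E19 HSTS, and the values of the main genes of both kinds follow. *ESM1* had 323 CPM in E19 HSTS against 182 CPM in E19 HS, a ratio of 1.77 (1.56 to 2.02), which is under the 2-fold limit. Among members with at least 3 rule genes the ratio was 2.11 (1.83 to 2.44). *CXCR4*, a chemokine receptor of tip and arterial cells, had 20 and 61 UMIs, a ratio of 0.444 (0.254 to 0.746), against 1.08 in the other cells. These 2 genes stand on the same tip cell list, which therefore had no common direction. *KLF2*, a factor induced by flow, had 253 and 502 UMIs, a ratio of 0.683 (0.585 to 0.796). *NOSTRIN*, which binds the nitric oxide synthase of endothelium, had 41 and 138 UMIs, a ratio of 0.402 (0.277 to 0.574), against 1.04 in other cells. Among 8 flow and barrier genes compared none was counted as higher or lower, with a median log2 ratio of -0.30. The 9 arterial genes compared included *CXCR4* as the only lower gene and no higher gene, also with a median of -0.30.

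Of the genes with the largest ratios by the fixed rule, several differed in the members and hardly in the other cells. *RGCC*, a cell cycle regulator known from hypoxic endothelium, had 256 UMIs in the E19 HSTS members against 164, a ratio of 2.11 (1.73 to 2.59), against 0.930 in the other cells. *SRM*, the spermidine synthase, had 176 and 112 UMIs, a ratio of 2.13 against 1.20. *CPE*, a peptide processing enzyme, had 54 and 249 UMIs, a ratio of 0.294 (0.215 to 0.396), against 0.976 in the other cells. As a description, *CPE* had 43.8 and 234 CPM in the arterial-like cluster and 35.4 and 140 CPM in the *STAB2* cluster. *S100A2* had 34 and 193 UMIs, a ratio of 0.239 against 1.00. *NTS*, the neurotensin precursor, was named by the rule for the comparison by day and not for this one. It was found in 26.8% and 17.2% of members, with a ratio of 1.79 (1.45 to 2.22), and was also higher in the other cells (1.55). *EDNRA*, the endothelin receptor of mural and mesenchymal cells, had a ratio of 2.34, which fell to 1.48 (0.977 to 2.26) with at least 3 rule genes. *CRABP1*, a retinoid binding protein, had a ratio of 2.59, with 38.9% of its E19 HSTS UMIs in 1 cell, and was at 1.40 (0.761 to 2.58) without the keratin and collagen cluster and the blood-gene cluster.

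Part of the largest ratios followed the libraries or single cells. *SENP6*, *HIST2H2AC*, *SERPINB1* and *PLCXD2* were higher in E19 HSTS members with ratios of 2.19, 2.51, 1.94 and 1.99, and in the other cells the ratios were 2.31, 2.11, 1.86 and 1.5. *Metazoa_SRP*, a signal recognition RNA whose symbol several gene identifiers share, had a ratio of 2.52. *NDUFA4L2*, a mitochondrial gene induced by low oxygen, was at 0.153 in members and 0.336 in other cells. The plasma protein genes *APOA2*, *AMBP*, *SERPINA1* and *AHSG* were 15.4-fold to 44.8-fold lower in E19 HSTS members. For these 4 genes, 1 cell of E19 HS held 76.3%, 67.6%, 92.5% and 78.8% of the UMIs. Without the members of high doublet score, *APOA2*, *SERPINA1* and *AHSG* had ratios of 1.21, 2.22 and 2.36, so no difference of these genes is claimed. The interferon-induced genes *IFI6*, *ISG15* and *MX1* were lower in E19 HSTS members, with ratios of 0.287, 0.316 and 0.335, and in the other cells the ratios were 0.802, 0.574 and 0.486. For these 3 genes, 1 cell held 54.8%, 45.7% and 44.7% of the UMIs of E19 HSTS members. In E16 HS members *IFI6* had 3 UMIs and the other two had 0, and *SERPINA1*, *APOA2* and *AHSG* had 1, 3 and 6.

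The comparison of E16 HS with E19 HS used the same E19 HS cells as the comparison of breeds. Over all members, it showed lower endothelial genes on day 16. Fewer of them were lower in members with at least 3 rule genes, a selection that itself favours cells with *PECAM1* and *CDH5*, both of which were lower in E16 HS, so a smaller difference is partly built into it. Of 6592 genes compared, 501 were higher in E16 HS (7.6%) and 422 were lower (6.4%), with a median log2 ratio of 0.14. With TMM scaling the median was -0.09 and the counts were 283 higher and 637 lower. Of 23 endothelial list genes, 17 were lower and 0 were higher, with a median log2 ratio of -1.38. Among members with at least 3 rule genes, 5 of 23 were lower and the median was -0.56, with 40 cells of E16 HS and 227 of E19 HS. Without the keratin and collagen cluster and the blood-gene cluster, 1 of 23 was lower and the median was -0.35, with 26 and 240 cells. These clusters were left out for their low share of cells with at least 3 rule genes (47.5% and 0%). This selection thus also acts on the rule genes, and a smaller difference is partly built into it as well. Lower endothelial content per cell and a larger part of weakly endothelial members cannot be told apart in the sum over all members. *CD93* had a ratio of 0.415 (0.330 to 0.516) over all members, 0.778 (0.600 to 0.997) with at least 3 rule genes and 0.909 (0.663 to 1.22) without the 2 clusters. *TEK* went from 0.410 (0.257 to 0.630) to 0.859 (0.527 to 1.34) and 0.844 (0.410 to 1.57).

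**Figure D5:**
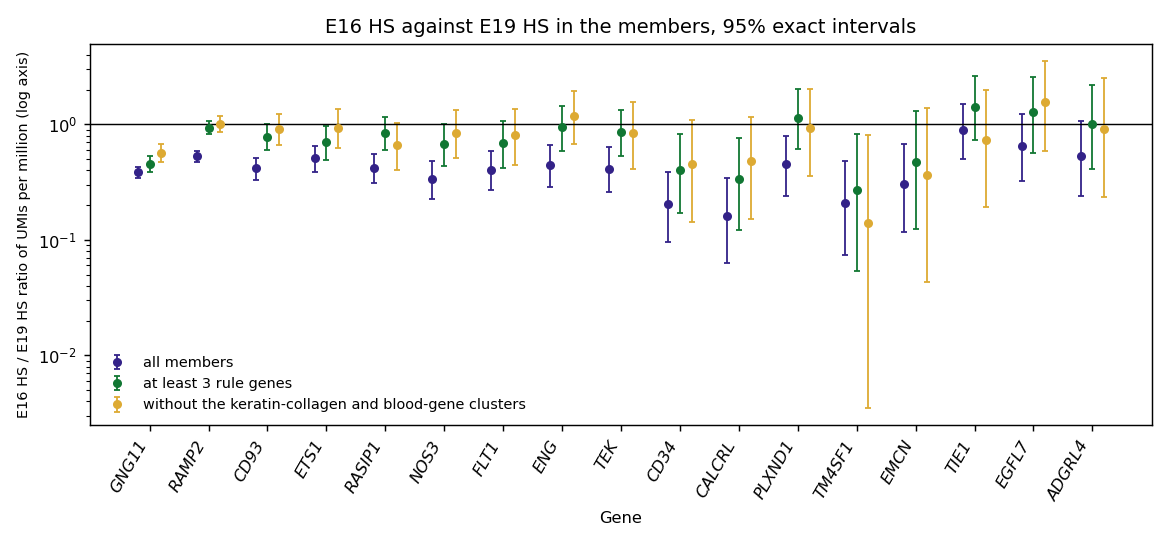
Ratio of summed CPM, E16 HS over E19 HS, on a log axis (vertical) for endothelial genes outside the rule (horizontal), with exact 95% intervals, over all members, those with at least 3 rule genes, and without the keratin-collagen and blood-gene clusters. *CD93* moves from 0.415 to 0.778 and 0.909, toward the line at 1, whereas *GNG11* stays below it at 0.383, 0.456 and 0.570.

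Some genes were lower on day 16 both over all members and in members with at least 3 rule genes. *KLF2* had 22 UMIs in E16 HS members and 502 in E19 HS members, and was 9.52-fold lower (ratio 0.105, 0.0652 to 0.161). With at least 3 rule genes its ratio was 0.175 (0.0971 to 0.292), and without the 2 clusters it was 0.219 (0.108 to 0.395). *STAB2* was at 0 UMIs in 101 cells of E16 HS and at 130 UMIs in E19 HS, where 18.2% of members held it. With its 0 set to a floor of 3 UMIs it was 18.1-fold lower, and the interval of the ratio reached up to 0.0690. It was also at 0 against 118 UMIs with at least 3 rule genes and at 0 against 102 UMIs without the 2 clusters. *STAB1*, the other stabilin, is named for contrast, since it was 2.04-fold lower over all members and was not counted as lower with at least 3 rule genes (1.10, 0.815 to 1.47). *NTS* was at 0 UMIs against 158, or 22.0-fold lower with that floor (interval up to 0.0566). It was at 0 against 120 UMIs with at least 3 rule genes, and in the other cells it was 5.15-fold higher in E16 HS. *TGFBR2*, a receptor of TGF-beta, was at 0 against 70 UMIs, or 9.73-fold lower with that floor (interval up to 0.130). It was at 0 against 60 UMIs with at least 3 rule genes. *NOSTRIN* had 2 against 138 UMIs (0.0347, 0.00417 to 0.128), and 0 against 107 with at least 3 rule genes. *DEPP1* had 3 against 157 UMIs (0.0458, 0.00935 to 0.136), and with at least 3 rule genes its ratio was 0.0726 (0.00871 to 0.267). *CD34*, a surface marker of small vessels, had 118 against 10 UMIs in E19 HS and E16 HS, and its ratio was 0.203 (0.0950 to 0.387) over all members and 0.403 (0.170 to 0.825) with at least 3 rule genes. Without the 2 clusters the *CD34* ratio was 0.452 (0.144 to 1.09), with an interval that included 1. *CALCRL*, the receptor that works with *RAMP2*, had a ratio of 0.160 (0.0627 to 0.341), of 0.339 (0.121 to 0.766) with at least 3 rule genes and of 0.480 (0.153 to 1.16) without the 2 clusters. *POSTN* was at 0.238 (0.186 to 0.302) over all members and at 0.289 (0.197 to 0.410) with at least 3 rule genes. Apart from *NTS*, ratios in the other cells are not given here, so these genes are not called particular to the members. Sum ratios of lists that hold some of them, in members and then in other cells, were 0.327 and 1.35 for flow and barrier. They were 0.303 and 0.487 for scavenger, 0.427 and 1.48 for general endothelium, 0.763 and 0.698 for BMP and TGF-beta, and 0.960 and 0.895 for cushion mesenchyme.

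Scavenger and barrier genes were lower in E16 HS over all members, and with at least 3 rule genes several of them were not. All 4 scavenger genes compared were lower, where 6.4% of all genes were, with a median log2 ratio of -2.93, and the list summed to 255, 249 and 75.3 CPM. *OIT3* had 67, 84 and 7 UMIs and *CD36*, a fatty acid carrier, had 31, 56 and 2. With at least 3 rule genes *OIT3* had a ratio of 0.491 (0.191 to 1.06), so its difference was no longer clear there, and *CD36* was at 0.20 (0.0236 to 0.759). Of 7 flow and barrier genes compared, 5 were lower in E16 HS, namely *KLF2*, *NOS3*, *CAV1*, *CAV2* and *CLDN5*, with a median of -1.91. *CAV2*, a protein of membrane caveolae, had 49, 105 and 11 UMIs, and with at least 3 rule genes its ratio was 0.399 (0.156 to 0.857). *CAV1*, its partner, was then at 0.335 (0.0388 to 1.32), which included 1. *CLDN5*, the claudin of endothelial tight junctions, had 25, 19 and 1 UMIs, and with at least 3 rule genes its interval also included 1 (0.273, 0.00658 to 1.72). *NOS3* was 2.98-fold lower over all members and had a ratio of 0.677 (0.436 to 1.01) with at least 3 rule genes.

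The angioblast gene *ETV2* was the exception among the early regulators. It had 165 UMIs in E16 HS and 199 in E19 HS members, a ratio of 1.99 (1.61 to 2.46), against 0.681 in the other cells. With at least 3 rule genes the ratio was 2.26 (1.52 to 3.31), on 40 and 92 UMIs. Without the 2 clusters it was 0.790 (0.351 to 1.56), on 9 and 104 UMIs, so the higher level lay in the keratin and collagen cluster, where *ETV2* had 212 CPM. *HHEX* went the other way, at 0.479 (0.256 to 0.842) over all members and 0.787 (0.361 to 1.54) with at least 3 rule genes.

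The genes with the largest increase in E16 HS were genes of other tissues. *GP1BB*, a platelet receptor subunit, had 123 UMIs against 11 and was 26.8-fold higher, and with at least 3 rule genes it had 0 against 5 UMIs. *COL1A1*, the main collagen of mesenchyme, had 465 against 70 UMIs and was 15.9-fold higher, and in the other cells it was 6.93-fold higher. *COL1A1* stayed higher with at least 3 rule genes (6.35, 4.2 to 9.63), and without the 2 clusters its ratio was 1.30 (0.144 to 5.68). *CRABP1* was 11.1-fold higher and *KRT18*, a keratin of simple epithelium, 4.60-fold higher, and with at least 3 rule genes they were at 1.41 (0.699 to 2.64) and 1.05 (0.713 to 1.51). Without the 2 clusters *KRT18* was at 17.3 (7.67 to 41.8), on 19 and 10 UMIs. *DSP*, *TUBA4A*, *DCN*, *COL1A2*, *CRABP2* and *COL2A1* were 4.75-fold to 15.3-fold higher, and with at least 3 rule genes *DSP* alone of them had an interval that left out 1 (4.25, 1.56 to 11.3). Of 5 mesenchyme genes compared, all 5 were higher in E16 HS members, with a list sum 5.54-fold higher in members and 3.66-fold higher in the other cells. The epithelium list was 3.70-fold higher in members and 3.11-fold higher in other cells, and the part of either list in the lower endothelial values was not tested.

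For the pathways that act on vessels, the counts are read beside 2.61% of all genes higher and 1.95% lower between the breeds, and 7.6% higher and 6.4% lower by day. In the VEGF and angiopoietin list, 0 of 8 genes were counted as different between the breeds, and 2 of 7, *FLT1* and *TEK*, were lower in E16 HS. *FLT1*, a decoy receptor of VEGF, had 127, 189 and 32 UMIs, and its ratio by day was 0.406 (0.270 to 0.593), or 0.688 (0.420 to 1.08) with at least 3 rule genes. In the Notch list, 0 of 7 genes were counted as different between the breeds and 1 of 5, the ligand *DLL1*, was higher in E16 HS. *JAG2*, a Notch ligand, had 15.7, 24.5 and 19.6 CPM in members and at most 2.12 CPM in other cells. *DLL4*, the Notch ligand of tip cells and arteries, had 7, 6 and 1 UMIs, too few to compare. In the BMP and TGF-beta list, 0 of 11 genes were counted between the breeds, and of 10 compared by day, *ENG*, *TGFBR2* and *SMAD1* were lower and *BMP4* was higher in E16 HS. *ENG*, the TGF-beta co-receptor of endothelium, had 85.7, 67.6 and 29.9 CPM, and its ratio by day was 0.443 (0.287 to 0.661), or 0.941 (0.588 to 1.45) with at least 3 rule genes.

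Few calls could be expected in lists of this size between the breeds, since 2.61% of all genes were higher and 1.95% were lower. In the basement membrane list 0 of 13 genes were counted as different between the breeds, with a median log2 ratio of 0.00. *COL4A1*, the main collagen of basement membranes, had 1203, 1199 and 761 CPM in members and 248, 210 and 473 CPM in other cells. By day, *LAMA4*, *HSPG2* and *SPARCL1* were lower and *NID2* was higher in E16 HS, of 12 compared. *LAMA4*, the laminin chain of endothelium, had 82, 97 and 11 UMIs, and with at least 3 rule genes it had 1 UMI against 85 in E16 HS and E19 HS. None of 9 cell cycle genes was counted as different between the breeds, and by day *PCNA* alone was counted, at a ratio of 2.01 (1.44 to 2.81) in E16 HS, or 2.27 (1.40 to 3.59) with at least 3 rule genes. *TOP2A* was found in 50.8%, 45.0% and 76.2% of members. None of the cell cycle inhibitors compared, 4 between the breeds and 5 by day, was counted as different, and their sum was 943, 1180 and 679 CPM.

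The remaining lists gave the levels of other vessel types and of other cells. At least 2 arterial genes were found in 46.4%, 44.3% and 25.7% of members, and in 15.5%, 11.4% and 14.2% of the other cells. At least 2 scavenger genes were found in 33.9%, 30.6% and 4.95% of members, and in 0.0286%, 0.0554% and 0.0107% of the other cells. At least 2 angioblast genes were found in 13.7%, 12.0% and 7.92% of members, and in 0.472%, 0.354% and 0.363% of the other cells. The arterial list summed to 321, 312 and 213 CPM and the venous list to 186, 194 and 114 CPM in members, against 127, 110 and 110 CPM and 116, 126 and 78.5 CPM in the other cells. *GJA5* had 34, 46 and 2 UMIs and *NR2F2* had 162, 173 and 96.0 CPM, but these are single genes of their lists. The sum ratio E16 HS over E19 HS in members was 0.682 (0.581 to 0.797) for the arterial list. For the venous list it was 0.586 (0.471 to 0.723). In the other cells these ratios were 1.01 and 0.624. The endocardial list summed to 260, 269 and 233 CPM, the tip cell list to 344, 215 and 89.8 CPM and the angioblast list to 150, 136 and 196 CPM. Lymphatic genes summed to 9.33, 11.6 and 4.13 CPM and brain vessel genes to 21.6, 15.1 and 28.9 CPM, near the other cells at 8.60, 7.52 and 5.27 CPM and 18.2, 14.8 and 25.1 CPM. Red cell genes were at 111, 62.0 and 156 CPM in members and 4659, 4116 and 5542 CPM in erythroid cells. Myeloid genes were at 206, 179 and 110 CPM in members and 30, 44.5 and 34.4 CPM in other cells, and megakaryocyte genes at 4.67, 5.60 and 130 CPM in members. *FCER1G*, counted with the myeloid genes, was found in 31.7%, 27.8% and 15.8% of members, and in 66.1% of the arterial-like cells. Among the members, *C1QA* was found in the blood-gene cluster alone.

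Markers of heart muscle, somites, nerve tissue, mesenchyme and epithelium were below their level in the other cells of each library, and pericyte, neural crest and extraembryonic endoderm markers were not in every library. Heart muscle genes were at 80.5, 37.0 and 43.3 CPM in members and 576, 374 and 89.0 CPM in other cells, and 1 cell held 91.9% of the *MYL7* UMIs of E19 HSTS members. Somite genes were at 15.7, 12.9 and 18.6 CPM, neural genes at 37.3, 57.3 and 67.1 CPM and neural crest genes at 4.67, 4.31 and 17.5 CPM. In the other cells neural crest genes were at 20.2, 16.1 and 12.5 CPM. In E16 HS members only 1 gene of this list was detected, with 17 UMIs. Its interval over the other cells included 1 (1.41, 0.817 to 2.26). Pericyte genes were at 16.3, 53.8 and 125 CPM in members and 80.9, 82.2 and 88.5 CPM in other cells, and *RGS5* had 3 against 39 UMIs on day 19 (0.104, 0.0206 to 0.328). Mesenchyme genes were at 196, 339 and 1877 CPM and epithelium genes at 151, 192 and 710 CPM in members. Cushion mesenchyme genes were at 304, 484 and 464 CPM and extraembryonic mesoderm genes at 8.17, 5.17 and 43.3 CPM. Extraembryonic endoderm genes were at 876, 1789 and 366 CPM in members and 899, 776 and 748 CPM in other cells, and most of this was *APOA1*, the apolipoprotein of high density lipoprotein. *APOA1* was found in 85.8%, 90.0% and 52.5% of the members at 862, 1536 and 357 CPM, against 287, 277 and 516 CPM in the other cells. The glycolysis list summed to 1645, 4196 and 4730 CPM in members and 1631, 3927 and 4428 CPM in other cells, with the library-wide gap of *GAPDH* in it. The lists of Notch, BMP and TGF-beta, VEGF and angiopoietin, basement membrane, and flow and barrier genes summed to 129, 1429, 422, 2073 and 417 CPM in E19 HSTS members. In E19 HS they summed to 157, 1840, 368, 2132 and 517 CPM, in E16 HS to 156, 1405, 272, 1533 and 169 CPM. The cell cycle list was at 1131, 1009 and 1164 CPM in members of the 3 libraries.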

How the data were processed

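Whole-embryo cells of 3 sheep libraries were measured by droplet scRNA-seq with 3′ tags. As deposited by the authors, the values are raw UMI counts per gene and barcode, not normalised, made with Cell Ranger 6.1.2 and the genome Ovis_aries_genome_v1.0. The processing notes also name Seurat 4.1.1 and R 4.1.2, which the authors used after these counts. The tables held 26478 genes, of which 16670 had a symbol, and the deposited barcodes numbered 11114, 12064 and 12645. Strand counting was not given in the sources used here.

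UMIs were summed over members and over other kept cells that were not erythroid, and were divided by the UMI total of the same cells (CPM). A 3′ tag count does not scale with gene length, and levels of different genes were not ranked. Intervals of CPM were exact Poisson intervals, those of shares exact Clopper-Pearson intervals, and those of ratios exact conditional binomial intervals, all at 95%. A library at 0 was set to a floor of 3 UMIs per library. Ratios of at least 2 or at most 0.5 were counted where the interval left out 1, over genes with at least 20 UMIs. Genes higher in members were counted at a ratio of at least 2 in each library.

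Clusters were made in Scanpy 1.11.5 from log counts per 10000, 2000 variable genes, 20 principal components and 15 neighbours, with Leiden resolution 0.5 (igraph 0.11.9) and no integration. Scrublet scored all kept cells and marked 193, 0 and 198 of them as doublets. Since it marked 0 cells in E19 HS, these calls were not used. How well its scores rank doublets in E19 HS was not tested. The top 8% of scores in each library were left out as an alternative. TMM factors came from edgeR 4.0.16 in R 4.3.3. Python 3.11.15, NumPy 2.4.6, SciPy 1.17.1, pandas 2.3.3 and matplotlib 3.10.9 were used, and the scripts were tested on simulated data.

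Genes were named when they stood on a marker list with at least 20 UMIs in the members of 1 library, when they were among the 20 with the highest lowest ratio of members to other cells (at least 100 UMIs in every library), when they were among the 10 largest ratios in each direction (at least 100 UMIs in the higher library), or when they led a cluster. List genes with fewer UMIs were named after their values were seen, for their low counts. *DLL1* and other genes were named where a count of 5 or fewer needed their names. The members and the gene lists were chosen with earlier results of these data known, so no list is independent support. With 1 library per condition no test, p-value or replicate error could be had.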

Additional observations from a re-analysis of the deposited data

How the results depend on the processing

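No paired analysis was possible because each condition had 1 library. The libraries kept their order of member shares (E19 HS, then E19 HSTS, then E16 HS) in every alternative that moved a share. With at least 3 rule genes the shares were 1.52%, 2.14% and 0.353% in the order E19 HSTS, E19 HS, E16 HS, and with 2 UMIs per rule gene they were 1.62%, 2.39% and 0.450%. Without *PLVAP* in the rule they were 1.58%, 2.26% and 0.380%, without *PECAM1* E19 HS was at 2.31%, and without *KDR* E16 HS was at 0.459%. E19 HSTS was at 1.60% without the highest doublet scores and E19 HS at 2.37% under a stricter cell filter (500 genes or more, mitochondrial share under 5%). E16 HS was at 0.469% after thinning and at 0.688% when any *AHSP* or *ALAS2* UMI excluded a cell. Genes higher and lower in E19 HSTS numbered 106 and 186 with TMM scaling, 25 and 31 with at least 100 UMIs, and 120 and 65 after thinning, and 287 were higher with no filter on low counts. Genes higher and lower in E16 HS numbered 283 and 637 with TMM scaling, 116 and 149 with at least 100 UMIs, 236 and 202 with at least 3 rule genes, 174 and 134 after thinning, and 168 and 163 without the keratin and collagen cluster and the blood-gene cluster. The last alternative, and leaving out for each gene the cell with the most UMIs, were chosen after seeing the data. Of the endothelial list, 9 of 11 genes compared were lower in E16 HS with at least 100 UMIs, and 5 of 23 with at least 3 rule genes. After thinning 2 of 15 were lower, and without the 2 clusters 1 of 23. Fewer genes or cells entered each of these, and other causes were not tested. Over all members 17 of 23 were lower, and with TMM scaling 21 of 23. Without the highest doublet scores 17 of 22 were lower, and without the top cell of each gene 18 of 22. With no filter on low counts 18 of 29 were lower, and 15 of 22 when any *AHSP* or *ALAS2* UMI excluded a cell. Genes at least 2-fold higher in members numbered 274 with at least 100 UMIs, and Leiden resolution 1 gave 10 clusters. Among those 10, a cluster of 77 cells led by *CRABP2* had *ETV2* among its leading genes and an angioblast list sum of 415 CPM. Members with at least 2 endothelial list genes were 100% in each library with at least 3 rule genes, and after thinning 91.0% in E19 HS and 50% in E16 HS. After thinning, at least 2 arterial genes were found in 20.8%, 19.4% and 8.33% of members and at least 2 angioblast genes in 1.73%, 1.79% and 2.08%. At least 2 scavenger genes were then found in 11.6%, 15.8% and 2.08% of members. In another setting, unthinned members with at least 3 rule genes, the scavenger share of E16 HS was 12.5%. Some named ratios turned direction. *APOA2*, *SERPINA1* and *AHSG* (E19 HSTS over E19 HS) were at 1.21, 2.22 and 2.36 without the highest doublet scores and at 1.27, 1.98 and 2.37 without the 2 clusters. *APOA2* and *AHSG* (E16 HS over E19 HS) were at 1.52 and 1.01 without the 2 clusters. *COL2A1* was at 0.649 with at least 3 rule genes, and *COL1A1* and *COL1A2* were at 0.987 and 0.617 after thinning. With 26 to 101 members of E16 HS, genes under about 20 UMIs could not be compared.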

Other observations

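*FCER1G*, the common gamma chain of immune receptors, was measured in members outside the cells with other blood genes. It had 99.2, 88.7 and 61.9 CPM in members of the 3 libraries in the order E19 HSTS, E19 HS, E16 HS, and 4.91, 6.93 and 6.11 CPM in the other cells. It was found in 66.1% of the arterial-like cells, 41.2% of the histone cluster, 27.1% of the *STAB2* cluster and 4.55% of the endocardial-like cells. *TYROBP*, a signalling partner from the same kind of receptors, was found in none of these 4 clusters. *APOA1* was also uneven among the clusters, with 2382 CPM in the arterial-like cells, 1596 CPM in the endocardial-like cells and 552 CPM in the keratin and collagen cluster. Its ratio E19 HSTS over E19 HS was 0.561 (0.528 to 0.597) in members and 1.04 in the other cells.

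The level of *ESM1* in the *STAB2* cluster was 333 CPM in E19 HSTS and 62.9 CPM in E19 HS, whereas in the arterial-like cluster it was 1516 and 1151 CPM. *KLF2* was at 26.5 CPM in endocardial-like cells of E19 HSTS and 242 CPM in those of E19 HS. These values come from 1 library each, were seen after the clusters were made, and have no test.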
